A study of Mus musculus with 59 samples.

Results

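The interferon response and class I antigen presentation genes described here are 45 listed mouse genes, matched by symbol or older symbol to Ensembl identifiers. All 45 were found among the 51456 genes of the deposited table, and 43 had a mean normalized count of at least 10 over all libraries and were tested. The sensor Zbp1 and the oligoadenylate synthetase-like gene Oasl1 had means of 4.90 and 5.02 and were not tested. The data are 59 libraries of polyadenylated RNA, each from prefrontal cortex taken on postnatal day 25 from mice of the C57BL/6J background. The mice were labelled heterozygous (HT) for the allele Chd8-S62X or wild type (WT), and both sexes were sampled. Pups of both genotypes had been given lithium, fluoxetine or vehicle in their mothers' milk from day 3 to day 24. Each of the 12 groups of genotype, drug and sex held 5 libraries, except HT-labelled females given fluoxetine with 4. This gave 20 lithium, 19 fluoxetine and 20 vehicle libraries, and 29 HT-labelled and 30 WT-labelled ones. The labels tie no library to a dam or litter and do not state that libraries are separate animals, so the p-values reflect only the spread among these libraries, which may be technical, and effects of the dam and of the drug cannot be told apart.

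Interferons are secreted proteins that cells release on sensing viral nucleic acid. Type I interferon binds its receptor and activates Janus kinases, and a complex that holds Stat2 and Irf9 then binds the interferon-stimulated response element in the promoters of induced genes. The products block viral entry, translation and replication. Interferon-γ raises class I antigen presentation, in which the immunoproteasome cuts peptides, Tap1 carries them into the endoplasmic reticulum, and heavy chains paired with β2-microglobulin show them at the cell surface. In brain tissue, microglia, vascular, border and meningeal cells and astrocytes can all express such genes at a low resting level. Lithium inhibits glycogen synthase kinase 3 and inositol monophosphatase, fluoxetine blocks serotonin reuptake, and Chd8, a gene linked to autism, codes for a remodeller of chromatin.

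The sum of normalized counts in a library lay between 30.3 and 33.7 M. The targeted gene went against the genotype labels in direction: Chd8 averaged 5921 ± 384 normalized counts where the label was HT (n = 29) and 3656 ± 309 where it was WT (n = 30, SD), with no overlap between them. Every genotype direction below therefore rests on the labels alone. The excitatory neuron markers were present in every library, with summed normalized counts of at least 108700, and 8 libraries stood apart in being rich in striatal markers. Of these, the HT-labelled ones were fluoxetine females 1 and 2, vehicle female 3, lithium female 5 and lithium males 1 and 4. The WT-labelled ones were vehicle female 5 and lithium male 2. Summed olfactory bulb markers also varied widely (236.5 to 16790), with medians of 2567, 1013 and 3145 under lithium, fluoxetine and vehicle. All values come from bulk tissue, in which fewer cells of a type and less RNA per cell cannot be told apart.

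The promoters of 37 members were matched in RefSeq (assembly GRCm38.p6) as windows from 250 bases before to 50 bases after the start of the gene. The core of the interferon-stimulated response element was searched on both strands, as GAAA followed after any 2 bases by another GAAA, which on the opposite strand reads as a pair of TTTC. It was present in 18 of the 37 matched members (48.6%) and in 1131 of all 32851 windows (3.44%). By role it was found in 17 of the 30 interferon-induced members and in 1 of the 7 class I members, B2m. TTCNNNGAA, the core of the gamma-activated sequence, was found in 8 of the 37 (21.6%) and in 8.3% of all windows. The stretches below belong to the 2 motif-bearing members with the smallest p after lithium (Rsad2 and Gbp3), to a member that fell without the motif in its window (Oasl2), and to the near-copies Ifit3 and Ifit3b. Each reads 5′ to 3′ on the gene's own strand, and capitals mark that GAAA pair on either strand.
Rsad2, chr12:26456503-26456602 (minus strand): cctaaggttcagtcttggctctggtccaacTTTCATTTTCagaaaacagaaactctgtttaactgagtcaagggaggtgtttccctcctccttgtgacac
Gbp3, chr3:142559944-142560043 (plus strand): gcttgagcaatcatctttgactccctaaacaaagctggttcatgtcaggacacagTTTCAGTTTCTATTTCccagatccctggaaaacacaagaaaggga
Oasl2, chr5:114896834-114896933 (plus strand): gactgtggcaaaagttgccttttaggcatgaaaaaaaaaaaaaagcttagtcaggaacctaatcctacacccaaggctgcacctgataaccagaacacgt
Ifit3, chr19:34583359-34583428 (plus strand): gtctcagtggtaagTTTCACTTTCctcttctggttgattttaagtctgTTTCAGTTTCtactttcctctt
Ifit3b, chr19:34607755-34607824 (plus strand): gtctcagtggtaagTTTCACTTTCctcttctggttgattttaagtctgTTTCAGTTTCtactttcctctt
In Gbp3, 2 overlapping copies share the middle TTTC. The stretches of Ifit3 and Ifit3b are the same over all 70 bases, and their upstream windows were 86.2% identical over 218 bases at a shift of 32 bases. Tap1 and Psmb9 lie on opposite strands of chromosome 17 with start sites 226 bases apart, so their windows overlap by 275 bases.

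The members differed widely in level. Per kilobase of exon, the highest mean was that of B2m (2264 normalized counts per kb), the light chain of all class I molecules. Ifitm3, which blocks the entry of enveloped viruses, had 361, the class I heavy chain H2-D1 358 and the immunoproteasome subunit Psmb10 330. The untested Zbp1 (1.39) and Oasl1 (1.92) were lowest, and among the tested members the helicase Ddx60 (3.07) and the oligoadenylate synthetase Oas2 (4.21). Rsad2 had 8.18. The inducers themselves were at the edge of detection: of 21 interferon genes of types I, II and III in the table, 15 were at 0 in every library, and no library exceeded a normalized count of 3.83. Near-identical copies make some values uncertain, because reads may be split between them: 68.8% of the 31-base words of the Oas1a transcript also occur in another gene, chiefly Oas1g. The share was 61.8% in Ifit3, 55.2% in Ifit3b, 27.5% in H2-D1, 23.4% in H2-K1 and 20.5% in Ifitm3, and at most 14.8% in every other member.

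The first question was whether lithium altered these genes in the cortex. Averaged over genotype and sex, 40 of the 43 tested members lay below 0 for lithium minus vehicle, as did 50.2% of all genes. Rsad2, Gbp3, Oasl2 and Oas1a, all antiviral effectors, passed the test over all 16839 genes, and all 4 fell. That is 9.3% of the members, against 4.41% of all genes called in either direction and 1.61% called lower. The median difference of the members was −0.19 on the log2 scale (log2 of the normalized count plus 1), against −0.000385 for all genes tested. At an unadjusted p under 0.05, 24 of the 43 were lower (8.57% of all genes) and 0 were higher (10.2% of all genes). The list was chosen with earlier results of these data known. Shares of the members set beside those of all genes, here and below, are therefore a description and not a test of the list. The 3 members above 0 were Stat2 (0.06 ± 0.044, SE), Cmpk2 (0.05 ± 0.043) and Psmb10 (0.02 ± 0.060), none of which passed the test. Below, SE follows a log2 difference and SD a mean, and adjusted p is that of limma with Benjamini-Hochberg adjustment over all 16839 genes.

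**Figure D1:**
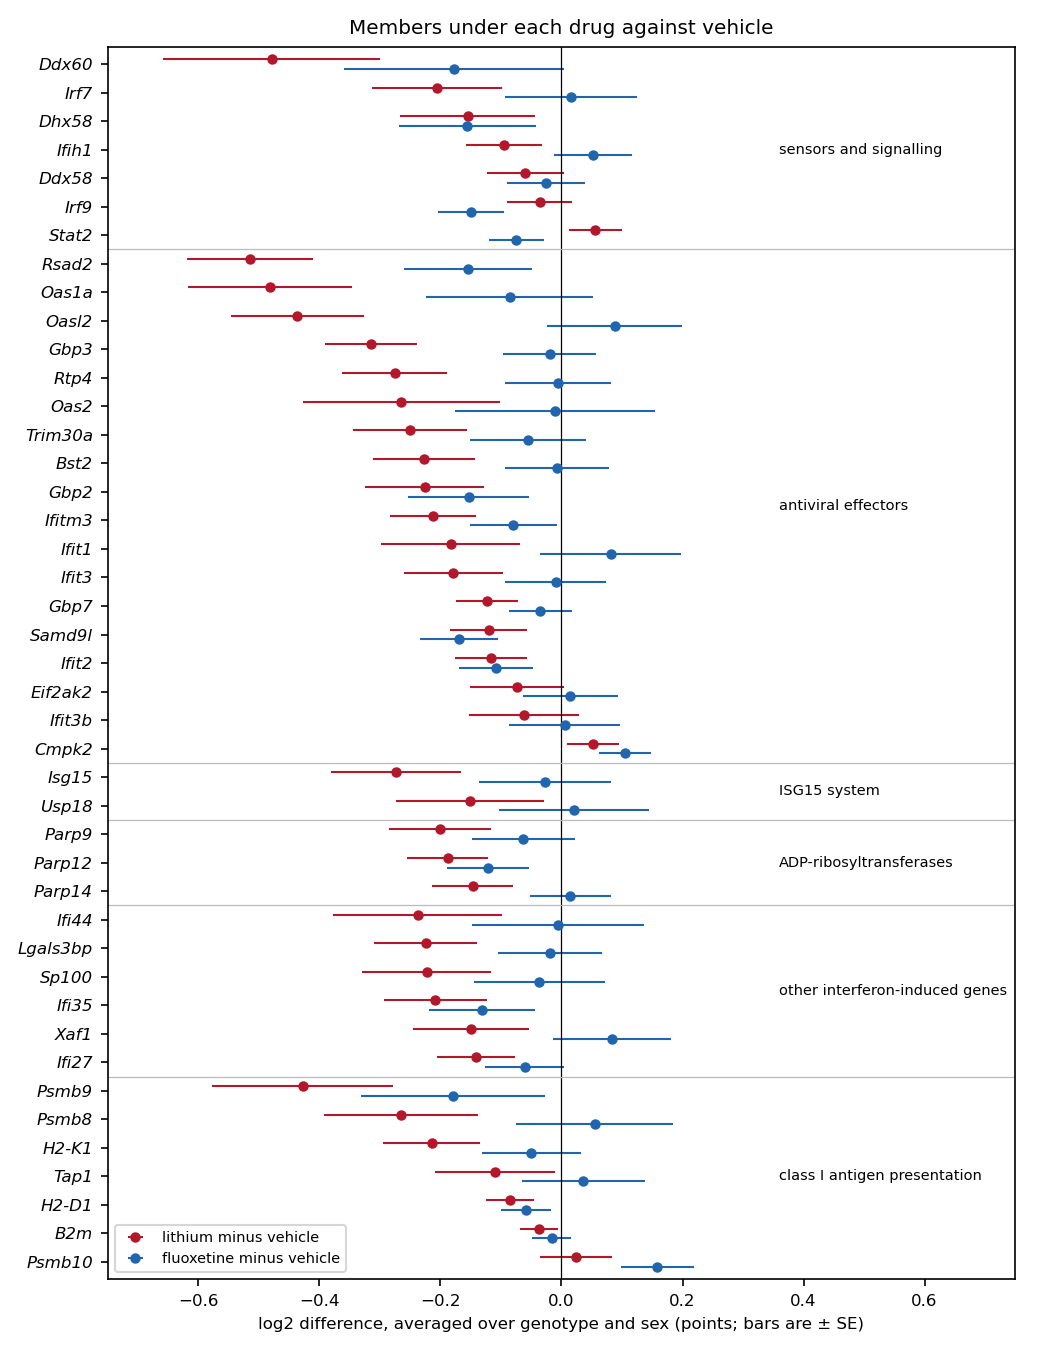
Log2 difference (horizontal axis, points, with bars of ± SE) of the 43 tested members for lithium minus vehicle (red) and fluoxetine minus vehicle (blue), averaged over genotype and sex and grouped by role. Under lithium 40 of 43 points lie left of 0, with Rsad2 lowest at −0.52, and under fluoxetine 30 of 43 do, over a narrower range.

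Among the 18 tested antiviral effectors, the median difference under lithium was −0.22 and 17 were below 0. Rsad2 encodes viperin, which makes a chain-terminating nucleotide that stops viral polymerases. Its normalized counts were 18.7, 27.9 and 41.5 in lithium libraries (lowest, median and highest of 20) and 21.1, 40.9 and 61.6 in vehicle libraries. The groups overlapped, yet 19 of 20 lithium libraries lay below the vehicle median and 8 vehicle libraries lay above the highest lithium library. The difference was −0.52 ± 0.10 (adjusted p = 0.00208), and it stayed called when any single library was left out.

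Oasl2, an oligoadenylate synthetase-like protein with ubiquitin-like domains, had 53.0, 89.1 and 119.5 normalized counts in lithium libraries and 58.0, 122.1 and 201.4 in vehicle libraries. All 20 lithium libraries were below the vehicle median, and 11 vehicle libraries were above the highest lithium value. It fell by 0.44 on the log2 scale (SE 0.11, adjusted p = 0.0133). Gbp3, a guanylate-binding GTPase of cell-autonomous immunity, had 83.7, 117.4 and 166.1 in lithium libraries and 98.4, 144.9 and 185.1 in vehicle libraries. In 17 of 20 lithium libraries it was below the vehicle median, and the difference was −0.31 ± 0.076 (adjusted p = 0.0102). Oas1a makes the 2′-5′ oligoadenylates that activate RNase L. Its counts were 7.54, 19.0 and 27.4 in lithium libraries and 14.7, 25.4 and 39.7 in vehicle libraries, and 17 of 20 lithium libraries were below the vehicle median. The difference was −0.48 ± 0.14 (adjusted p = 0.0280). It was of like size but no longer called without the 8 striatal-rich libraries (−0.46, adjusted p = 0.0569), without HT-labelled lithium female 1 (−0.44, 0.0564) or without WT-labelled lithium male 3 (−0.43, 0.0532). Its reads cannot be separated with certainty from those of Oas1g.

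**Figure D2:**
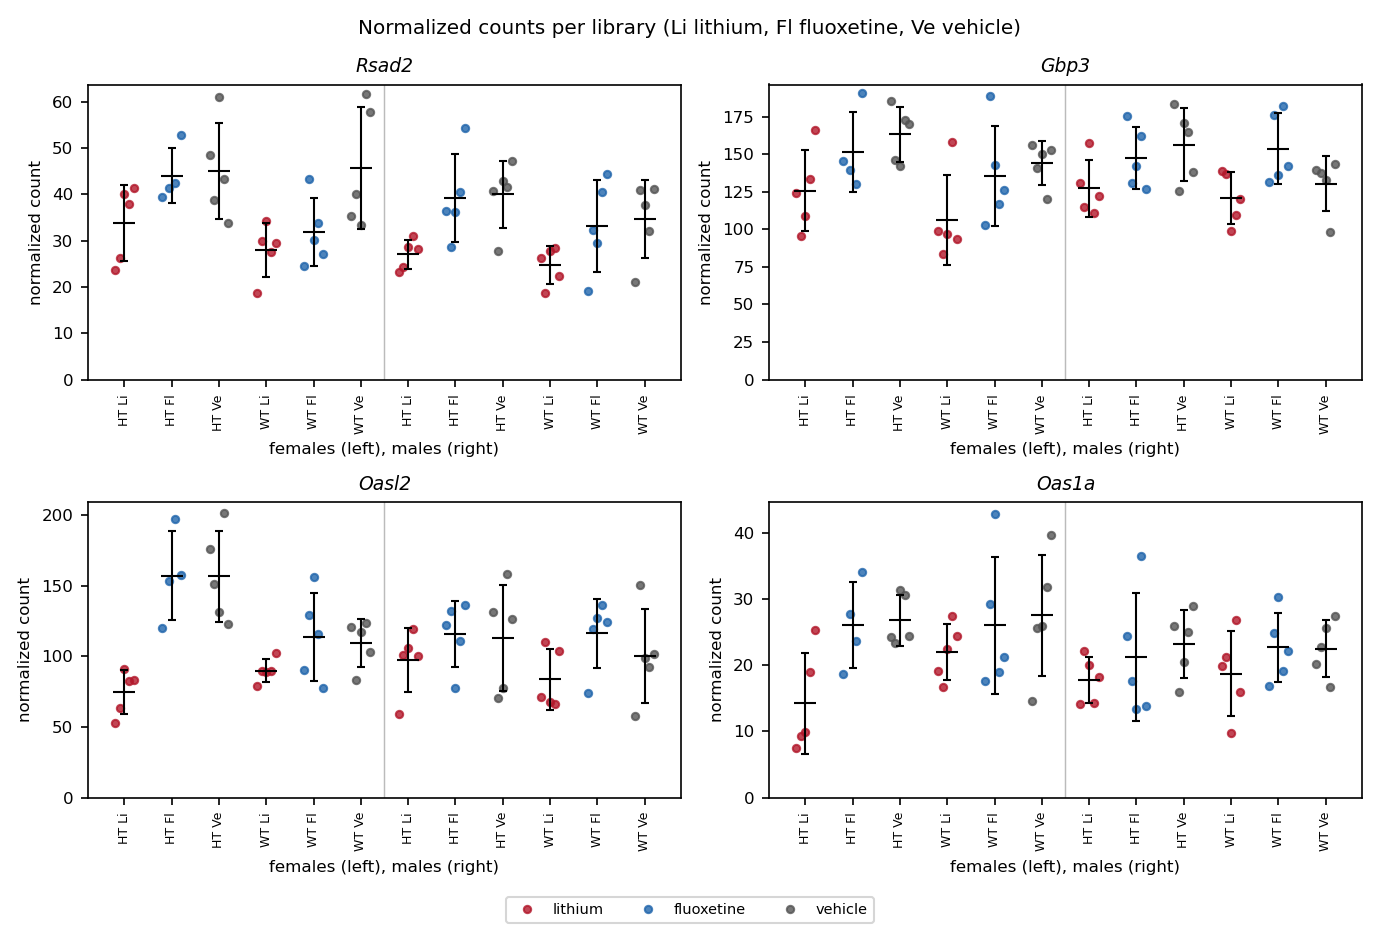
Normalized counts per library (vertical axis, from 0) of the 4 members called under lithium, with a column for each of the 12 groups, females left and males right. Points are libraries and bars the mean ± SD, and in Oasl2 the HT-labelled lithium females (53.0 to 91.1) lie below all HT-labelled vehicle females (123.1 to 201.4).

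The next effectors in order of p did not pass: the chaperone Rtp4 (−0.28 ± 0.086, adjusted p = 0.0520) and Ifitm3 (−0.21 ± 0.071, adjusted p = 0.0699). Among other family members, the tetherin gene Bst2 had −0.23, Gbp2 −0.23, Gbp7 −0.12 and the kinase gene Eif2ak2 −0.07. The Ifit genes, whose products bind foreign RNA ends and initiation factors, had −0.18 (Ifit1), −0.12 (Ifit2), −0.18 (Ifit3) and −0.06 (Ifit3b). Rsad2 and Cmpk2, a mitochondrial nucleotide kinase gene, are neighbours on chromosome 12 that are transcribed away from each other. Cmpk2 had 584.5, 774.6 and 841.2 normalized counts in lithium libraries and 563.6, 735.9 and 885.0 in vehicle libraries, and only 7 of 20 lithium libraries were below its vehicle median, where Rsad2 had 19.

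The sensors and signalling factors had a median difference of −0.10 under lithium, with 6 of 7 below 0 and 0 called by limma (1 at an unadjusted p under 0.05, Ddx60). Ddx60, a helicase that assists RNA sensing, had 11.2, 17.2 and 59.2 normalized counts in lithium libraries and 14.7, 27.1 and 58.7 in vehicle libraries. The highest lithium library reached the top of the vehicle range. The difference was −0.48 ± 0.18 (adjusted p = 0.114), and without that library, HT-labelled lithium female 5, it was −0.58 and passed (adjusted p = 0.0293). Irf7, the master regulator of interferon-α genes, had 22.9, 57.9 and 83.5 in lithium libraries and 35.1, 63.8 and 100.4 in vehicle libraries (−0.21 ± 0.11, adjusted p = 0.295). The RNA helicases Ddx58 (RIG-I), Ifih1 (MDA5) and Dhx58 (LGP2) had −0.06, −0.10 and −0.16. The factors of the response complex had 0.06 (Stat2) and −0.04 (Irf9), and neither passed the test.

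Isg15 is a ubiquitin-like modifier, and Usp18 is the protease that removes it and a brake on the interferon receptor. Isg15 had 22.5, 35.0 and 69.9 normalized counts in lithium libraries and 35.1, 43.1 and 64.1 in vehicle libraries. Of the lithium libraries, 10 lay below the lowest vehicle library and 14 below the vehicle median, but the highest value was also from lithium (−0.27 ± 0.11, adjusted p = 0.138). Usp18 had 17.9, 30.1 and 40.4 in lithium libraries and 19.2, 30.4 and 60.7 in vehicle libraries (−0.15 ± 0.12, adjusted p = 0.544). Its medians were close, and 6 vehicle libraries lay above every lithium library.

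The 3 ADP-ribosyltransferases of the Parp family, which modify proteins during antiviral responses, were all below 0. Parp12 had 162.3, 206.5 and 276.9 normalized counts in lithium libraries and 177.8, 232.6 and 367.7 in vehicle libraries (−0.19 ± 0.067, adjusted p = 0.0921). Parp9 had 68.3, 96.7 and 138.1 in lithium libraries and 76.7, 110.7 and 156.3 in vehicle libraries (−0.20 ± 0.084, adjusted p = 0.172). For both genes, 16 of 20 lithium libraries were below the vehicle median and 4 vehicle libraries were above the highest lithium value. Parp14 had −0.15 and did not pass.

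The other 6 interferon-induced members had a median of −0.22, and all were below 0 without a call by limma (4 at an unadjusted p under 0.05). Lgals3bp, a secreted glycoprotein that binds galectin-3, had 259.7, 329.9 and 448.0 normalized counts in lithium libraries and 305.4, 378.0 and 555.7 in vehicle libraries (−0.22 ± 0.085, adjusted p = 0.122). Ifi35 had 60.2, 72.6 and 111.6 in lithium libraries and 64.4, 82.4 and 114.2 in vehicle libraries (−0.21 ± 0.086, adjusted p = 0.161). The ranges of both overlapped widely, with 7 and 3 lithium libraries below the lowest vehicle library. Ifi44 had −0.24, the nuclear body gene Sp100 −0.22, the apoptosis cofactor gene Xaf1 −0.15 and Ifi27 −0.14.

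Class I presentation genes showed a smaller median, −0.11, with 6 of 7 below 0 and 0 called by limma (4 at an unadjusted p under 0.05). Psmb9, the β1i subunit of the immunoproteasome, had 4.80, 19.3 and 35.4 normalized counts in lithium libraries and 10.1, 25.0 and 43.1 in vehicle libraries (−0.43 ± 0.15, adjusted p = 0.0880). H2-K1, a class I heavy chain, had 286.7, 427.1 and 670.5 in lithium libraries and 371.3, 483.3 and 731.3 in vehicle libraries (−0.21 ± 0.080, adjusted p = 0.117). In H2-K1, 17 of 20 lithium libraries were below the vehicle median. Psmb8, the β5i subunit, had −0.27, and Tap1, whose promoter window is largely shared with that of Psmb9, had −0.11 and 13 of 20 lithium libraries below the vehicle median. The abundant members moved least: B2m had −0.04 ± 0.031, H2-D1 −0.08 ± 0.040 and Psmb10, the β2i subunit, 0.02 ± 0.060.

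Members with and without the GAAA pair in the matched window had the same median difference under lithium to 2 decimals, −0.20 in each set of 18. For TTCNNNGAA the medians were −0.21 with it (8 members) and −0.19 without it (28 members). Ifit3 and Ifit3b, with the same 70 bases, had −0.18 ± 0.082 and −0.06 ± 0.091.

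Markers of other cell types differed under lithium too, in both directions. All 9 meningeal fibroblast markers, such as Col1a1 and Dcn, were below 0, with a median of −0.30 and 2 called, and their summed normalized counts had medians of 8824 in lithium libraries (7355 to 11240) and 10150 in vehicle libraries (8703 to 23100). Border macrophage markers had a median of −0.19 (6 of 7 below 0, summed counts 421.5 to 963.8 under lithium and 448.6 to 1204 under vehicle), and erythroid markers −0.37 (5 of 5, 4283 to 20550 and 9664 to 20420). Mural markers had −0.06 (8 of 8), endothelial markers −0.05 (6 of 10) and microglial markers −0.04 (11 of 12). Summed astrocyte markers went the other way, with medians of 171300 in lithium libraries (147200 to 187900) and 165900 in vehicle libraries (142900 to 201100). So did oligodendrocyte markers (143200 and 138300) and inhibitory neuron markers (25020 and 24310), with overlapping ranges. No marker of these lists was at 0 in every library. Of 10 lymphocyte markers, only Cd4, with a mean of 37.3, passed the filter, and Cd3e averaged 0.946. With the level of the meningeal markers as a covariate, chosen after the data were seen, the median of the members was −0.08 and Rsad2 was the single member still called, at −0.35 (adjusted p = 0.0391). With the mural markers in its place, Rsad2 and Gbp3 were called. For fluoxetine minus vehicle, these lists medians of −0.26 for meningeal (8 of 9 below 0) and −0.30 for border macrophage markers (7 of 7), beside a median of −0.03 for the members. The part of these cells in the lithium differences was not tested beyond these covariates.

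Within each genotype most members again lay below 0, but none passed the test. In HT-labelled mice, averaged over sex, 39 of 43 members were below 0 (median −0.16, 49% of all genes below 0) and 0 were called by limma, with 15 lower at an unadjusted p under 0.05 (34.9%, against 4.39% of all genes) and 0.238% of all genes called. The smallest p values were those of Oasl2 (−0.62 ± 0.15, adjusted p = 0.0570) and Oas1a (−0.68 ± 0.19, adjusted p = 0.126). In WT-labelled mice 40 of 43 were below 0 (median −0.16, 50.6% of all genes below 0) and 0 were called, with 11 lower at an unadjusted p under 0.05 (25.6%, against 5.62% of all genes) and 0.214% of all genes called. There Psmb9 (−0.80 ± 0.21) and Rsad2 (−0.56 ± 0.15) led, both with an adjusted p of 0.0772. These 2 comparisons use different libraries.

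Within single groups of 5 against 5, no member was called by limma in any of the 4 lithium strata, and no gene at all was (0% of all genes). The medians were −0.26 in HT-labelled females, −0.09 in HT-labelled males, −0.14 in WT-labelled females and −0.14 in WT-labelled males, with 39, 35, 37 and 37 members below 0 (49.1%, 49.1%, 50.6% and 50.1% of all genes). At an unadjusted p under 0.05, 16, 2, 4 and 6 members were lower (2.58%, 2.49%, 2.99% and 4.51% of all genes), and 1 was higher, in WT-labelled males (4.81%). The largest single difference was that of Oasl2 in HT-labelled females, with 53.0, 63.6, 91.1, 82.3 and 83.1 normalized counts under lithium and 175.8, 151.0, 131.0, 201.4 and 123.1 under vehicle. The groups did not overlap (−1.06 ± 0.22, adjusted p = 0.0671).

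Bst2, Rtp4 and Ifi35 likewise did not overlap in HT-labelled females, which with Oasl2 makes 4 of 43 members (9.3%), where 0.416% of all genes had every lithium library below every vehicle library. Bst2 had 64.0 to 87.5 normalized counts under lithium and 104.2 to 118.9 under vehicle. Rtp4 had 46.7 to 57.05 under lithium and 62.6 to 93.4 under vehicle. For Ifi35 the groups all but touched, with 62.6 to 78.07 under lithium and 78.11 to 105.0 under vehicle. In HT-labelled males, Sp100 alone did not overlap (0.380% of all genes), with 54.9 to 89.3 under lithium and 102.2 to 140.9 under vehicle. In WT-labelled females no member was so placed (0.879% of all genes), and in WT-labelled males Psmb9 alone (0.891%), with 10.1 to 19.7 under lithium and 20.6 to 34.1 under vehicle. In HT-labelled females Psmb9 had 20.7 to 32.2 under lithium and 20.7 to 41.7 under vehicle, so that its groups overlapped throughout.

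**Figure D3:**
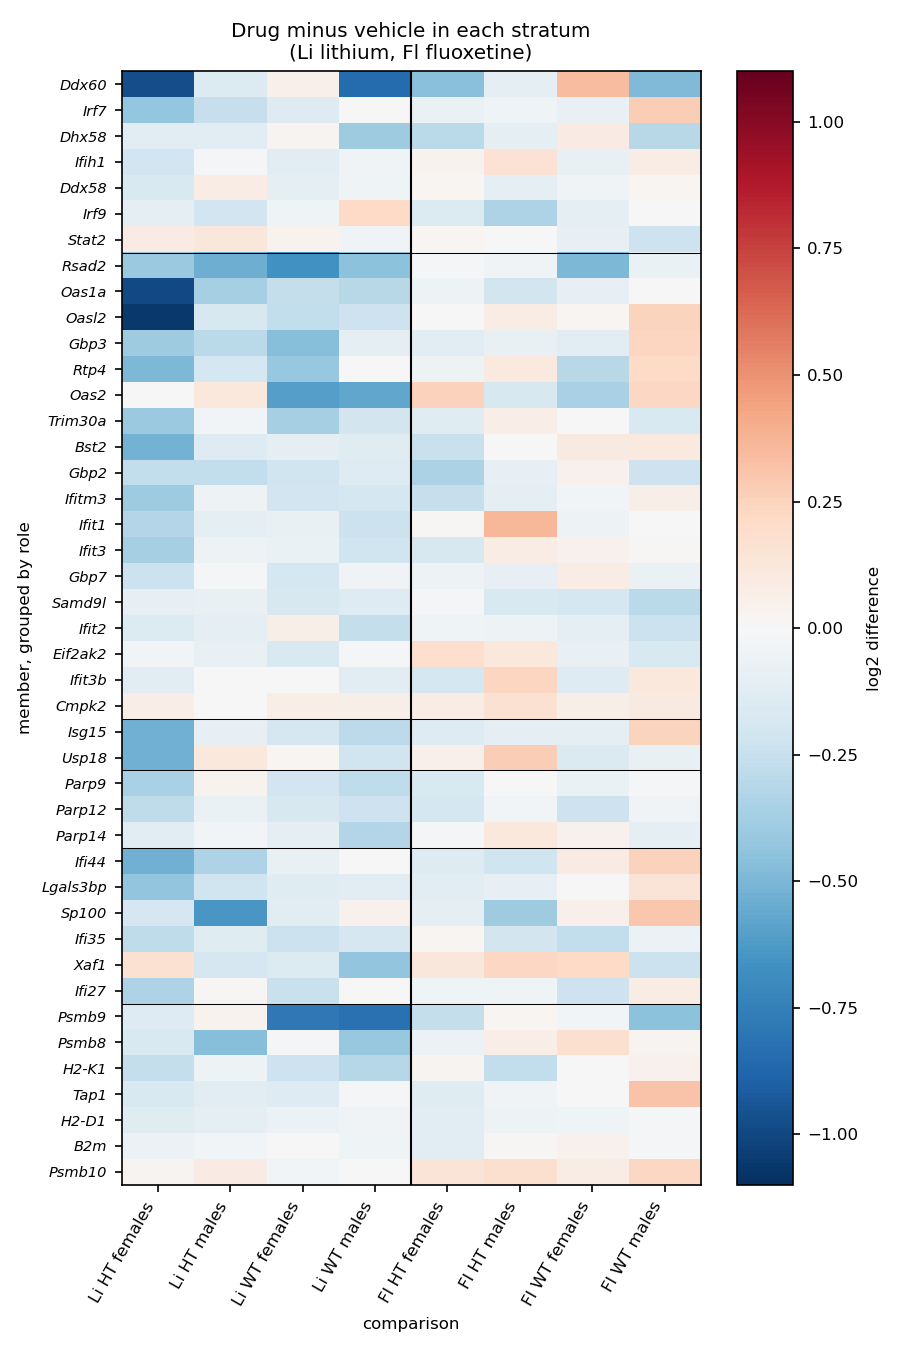
Log2 difference (colour, blue lower and red higher) of each tested member (rows, by role) for lithium and fluoxetine against vehicle in each genotype and sex (columns). The lithium columns are mostly blue, darkest for Oasl2 (−1.06) in HT-labelled females, while Psmb9 is dark in the WT-labelled columns, and the fluoxetine columns are mixed.

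Whether lithium acted differently in the 2 genotypes was tested as a difference of differences, and limma called 0 members and 0% of all genes (2 members, or 4.65%, at an unadjusted p under 0.05, against 2.29% of all genes). Psmb9 had the smallest p: its lithium difference was −0.05 ± 0.21 in HT-labelled and −0.80 ± 0.21 in WT-labelled mice, and these differed by 0.75 ± 0.30 (adjusted p = 1.0). Irf9 followed (−0.25 ± 0.11, adjusted p = 1.0). Oasl2, with −0.62 in HT-labelled and −0.25 in WT-labelled mice, differed by −0.37 ± 0.22. Between the sexes, 32 of 43 members had a more negative lithium difference in females (49.5% of all genes did), and limma called 0 members and 0 genes. At an unadjusted p under 0.05 were 3 members (2.6% of all genes in either direction): Ifi27, Oasl2 and Rtp4, all with an adjusted p of 1.0. The SE of these contrasts, 0.22 for Oasl2, was larger than the lithium difference of many members.

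Under fluoxetine the members lay close to vehicle. This comparison shares its vehicle libraries with that of lithium. Averaged over genotype and sex, their median difference was −0.03 (0.00148 for all genes), 30 of 43 were below 0 (49.1% of all genes), and limma called 0 members, with 0.0653% of all genes called. At an unadjusted p under 0.05, 2 were lower and 2 higher (9.3%, against 11.9% of all genes). Irf9 had 300.6, 373.1 and 478.7 normalized counts in fluoxetine libraries and 333.9, 424.7 and 534.7 in vehicle libraries (−0.15 ± 0.055, adjusted p = 0.284). In Irf9, 18 of 19 fluoxetine libraries were below the vehicle median, where 13 of 20 lithium libraries were. Samd9l, an antiviral factor that shuts down translation, had −0.17 ± 0.064 (adjusted p = 0.298), and Psmb10 and Cmpk2 had 0.16 and 0.11. Averaged over sex, limma called 0 members in HT-labelled mice (2 at an unadjusted p under 0.05, against 5.09% of all genes, with 0% of all genes called) and 0 in WT-labelled mice (2, against 12.5%, with 0.19% called). The smallest p values belonged to Irf9 and Cmpk2 in HT-labelled mice (adjusted p = 0.906 for both) and to Samd9l (0.210) and Stat2 (0.252) in WT-labelled mice. The 4 single strata also held 0 calls by limma, with 0.0297% of all genes called in WT-labelled males and 0% elsewhere. In HT-labelled females and males and WT-labelled females and males, 0, 1, 1 and 2 members were at an unadjusted p under 0.05 (3.23%, 4.47%, 7.78% and 9.41% of all genes). For the difference in fluoxetine effect between genotypes limma called 0 members and 0% of all genes, with 0 members at an unadjusted p under 0.05 (6.18% of all genes). The smallest adjusted p was 0.804, for Sp100 (−0.43 ± 0.22), and Stat2 followed (0.17 ± 0.089).

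Set directly against fluoxetine, lithium libraries had a difference below 0 in 39 of 43 members (49.6% of all genes), with a median of −0.16, and 4 were called, all lower (9.3%, near the 8.88% of all genes called, and above the 4.37% called lower). Oasl2 had 53.0, 89.1 and 119.5 normalized counts under lithium and 74.2, 124.4 and 197.0 under fluoxetine, and fell by 0.52 on the log2 scale (SE 0.11, adjusted p = 0.00169). Gbp3 had −0.30 ± 0.077 (adjusted p = 0.00980), Rsad2 −0.36 ± 0.11 (0.0226) and Rtp4 −0.27 ± 0.088 (0.0423). With mural markers as a covariate Rsad2 was no longer called (−0.29, adjusted p = 0.0589). Oas1a had −0.40 ± 0.14 and did not pass (0.0596). This comparison shares its lithium libraries with that against vehicle, and the values of the 3 genes called in both therefore stand side by side and not as a repeat.

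The second question was whether the genotype label mattered. Averaged over drug and sex, 33 of 43 members were above 0 for HT-labelled minus WT-labelled libraries and 10 below (49.2% of all genes below 0), with a median of 0.07 (0.00161 for all genes). Of the members 3 were called (6.98%), a share near that of all genes (7.98%). Ifit1 and Usp18 were higher and Ifi27 was lower in HT-labelled libraries. Ifit1, which binds RNA lacking the host cap, had normalized counts of 35.3, 71.8 and 105.8 (lowest, median and highest) in HT-labelled libraries, against 38.0, 54.4 and 106.6 in WT-labelled ones. The ranges were nearly the same, and the HT-labelled median was the higher one (0.30 ± 0.095, adjusted p = 0.0387). Usp18 had 18.0, 35.7 and 60.7 in HT-labelled and 14.1, 27.3 and 52.2 in WT-labelled libraries (0.30 ± 0.10, adjusted p = 0.0499). Ifi27, a mitochondrial and nuclear envelope protein, had 273.8, 398.8 and 554.8 in HT-labelled and 335.5, 447.3 and 580.5 in WT-labelled libraries (−0.19 ± 0.053, adjusted p = 0.0221). Again the groups overlapped over most of their range.

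Leaving out 1 library left 1 to 4 members called, with Usp18 lost in 41 of 59 cases and Ifit1 in 22. Ifi27 kept its call in all 59 but had −0.11 (adjusted p = 0.152) without the 8 striatal-rich libraries. Within each drug, limma called 0 members between genotypes: 5 were at an unadjusted p under 0.05 under vehicle, 4 under fluoxetine and 3 under lithium (10.6%, 14.7% and 10.1% of all genes, with 0.202%, 0.849% and 0.267% called). The member with the smallest p was Sp100 under vehicle (0.40 ± 0.15, adjusted p = 0.316), Usp18 under fluoxetine (0.53 ± 0.18, adjusted p = 0.129) and Psmb9 under lithium (0.65 ± 0.21, adjusted p = 0.207). Second came Irf9 under vehicle (0.19, adjusted p = 0.339), Ifit1 under fluoxetine (0.46, adjusted p = 0.164) and Ifi27 under lithium (−0.22, adjusted p = 0.373). The 6 single strata of genotype held 0 member calls by limma. In females, 5, 3 and 3 members were at an unadjusted p under 0.05 under vehicle, fluoxetine and lithium (5.75%, 7.19% and 5.04% of all genes, with 0.0297%, 0.0238% and 0.0238% called), and in males 2, 2 and 2 (8.18%, 10.5% and 9.44%, with 0.0238%, 0.0475% and 0.0534% called). Among marker lists, excitatory neuron markers had a median of −0.11 between genotypes (8 of 8 below 0), border macrophage markers −0.12 (7 of 7), oligodendrocyte markers 0.17 (8 of 8 above 0) and mural markers 0.06 (7 of 8 above 0). With mural markers as a covariate 1 member and 914 of all genes were called. With border macrophage markers 10 members were called. The count over all genes for that covariate is not given here, so the 10 are not set against a baseline.

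**Figure D4:**
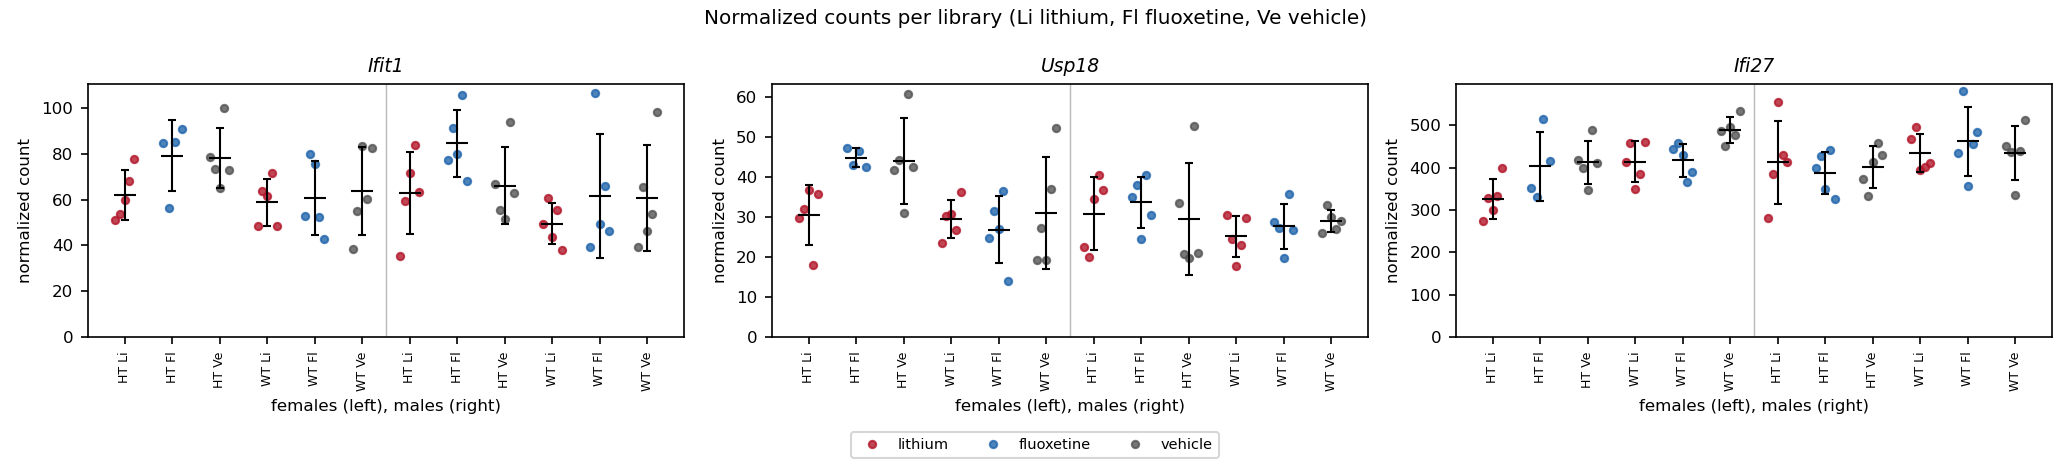
Normalized counts per library (vertical axis, from 0) of the 3 members called between genotypes, with a column for each of the 12 groups, females left and males right. Points are libraries and bars the mean ± SD. In Usp18 the 4 HT-labelled fluoxetine females ran from 42.5 to 47.3 and the WT-labelled ones from 14.1 to 36.55, without a call by limma (adjusted p = 0.436). The share of all genes so placed was not counted.

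Between the sexes, females minus males averaged over genotype and drug, 34 of 43 members were above 0 and 9 below (49.6% of all genes below 0, median 0.06) and limma called 0 (0.154% of all genes called), with 4 higher at an unadjusted p under 0.05 (3.84% of all genes). Irf7 had the smallest p (0.27 ± 0.089, adjusted p = 0.352), followed by Rtp4 (0.18 ± 0.071, adjusted p = 0.501). Irf7 ran from 47.8 to 100.4 normalized counts in females, against 22.9 to 88.3 in males, so that the ranges overlapped.

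Outside the members, 101 further genes of the pathway were listed in 5 groups, and 88 were tested. Under lithium 5 were called (5.68%, near the 4.41% of all genes), 3 lower and 2 higher. Trim25, the ubiquitin ligase that activates RIG-I, fell by 0.21 on the log2 scale (SE 0.052, adjusted p = 0.0141). The interferon-induced ligase gene Trim34a fell by 0.27 (SE 0.080, adjusted p = 0.0398), and Psme1, a subunit of the 11S proteasome activator, by 0.14 (SE 0.035, adjusted p = 0.0123). The lectin chaperones of heavy chain folding rose: Calr by 0.13 (SE 0.029, adjusted p = 0.00472) and Canx by 0.09 (SE 0.022, adjusted p = 0.0108). Both fold many glycoproteins besides class I molecules.

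The groups differed in how far they resembled the members. The 33 other interferon-induced genes had a median of −0.14 under lithium (24 below 0, 1 called), with Ifitm2 (−0.20, adjusted p = 0.0692) and Gbp6 (−0.36, adjusted p = 0.0991) next after Trim34a. The 16 sensing genes had −0.07, with Mavs, the adaptor of RIG-I, at −0.11 (adjusted p = 0.0712) and Myd88 at 0.09 (0.264). The 19 genes of interferon receptors and Janus kinase signalling had −0.01 and 0 calls by limma (1 lower and 1 higher at an unadjusted p under 0.05). Of these, the feedback inhibitor Socs3 had 0.24 (adjusted p = 0.119) and the receptor subunits Ifnar2 and Ifnar1 −0.08 (0.212) and −0.04 (0.401). The 14 other class I genes had 0.00416, with 7 below 0. The 6 class II genes had −0.03 and 0 calls (0 at an unadjusted p under 0.05), with Cd74 at −0.14 (adjusted p = 0.394), H2-Aa at −0.12 (0.605) and H2-DMa at 0.06 (0.727). Between genotypes, 4 pathway genes were called (4.55%, below the 7.98% of all genes), named here after their values were seen: Mavs (0.11), Samhd1 (0.16) and Tapbp (0.10) were higher and H2-DMa (−0.18) lower in HT-labelled libraries.

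The members also varied together within groups. After the mean of its group was taken from each library, the median correlation between 2 interferon-induced members over 59 libraries was 0.254 (36 genes, 533 of 630 pairs above 0), and between 2 class I members 0.221. Between an interferon-induced and a class I member it was 0.204, while among every 8th gene tested it was −0.000717. These correlations share libraries and tissue content and are a description. Ifit1 (0.804) and Ifitm3 (0.787) followed the mean of the other interferon-induced members most closely, then Ifit3 (0.729) and Bst2 (0.727). Rsad2, with the smallest p under lithium, had 0.394. Cmpk2 (−0.349), Psmb10 (−0.186) and Ifih1 (−0.170) ran against the rest.

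**Figure D5:**
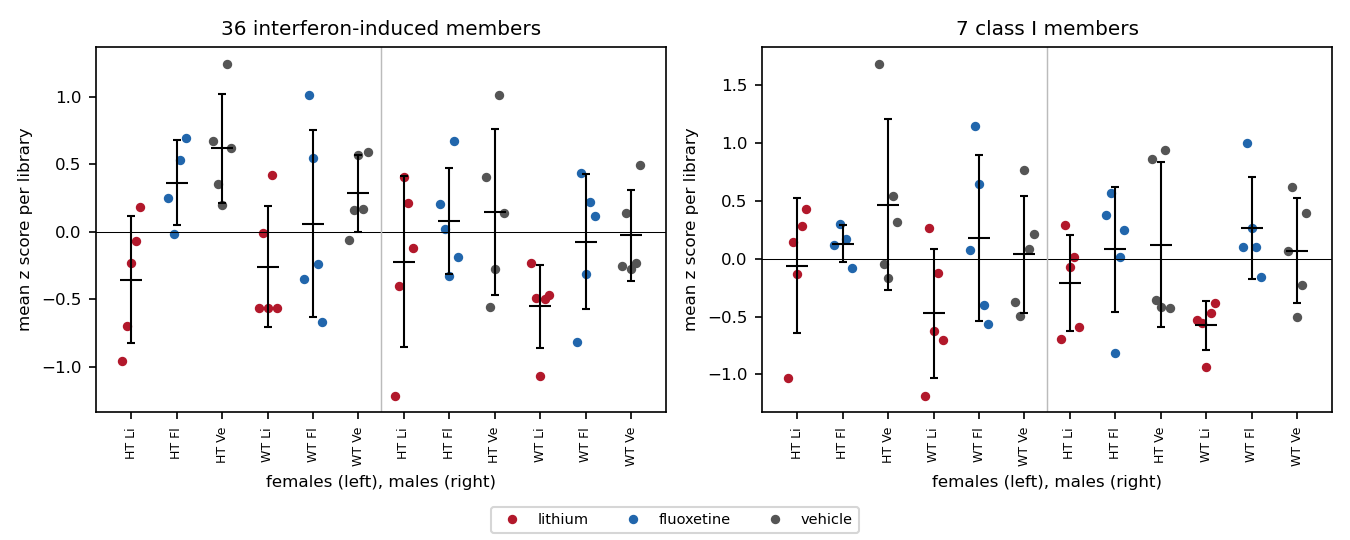
Mean z score per library (vertical axis) of the 36 interferon-induced members and of the 7 class I members, with a column for each of the 12 groups, females left and males right. Points are libraries and bars the mean ± SD, and the interferon-induced score of HT-labelled vehicle females is the highest group mean (0.618) and that of WT-labelled lithium males the lowest (−0.553).

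The mean z score of the 36 interferon-induced members ran from −1.21 through a median of −0.435 to 0.418 in lithium libraries. It ran from −0.819 through 0.118 to 1.01 in fluoxetine libraries and from −0.558 through 0.184 to 1.25 in vehicle libraries. The class I score had medians of −0.425, 0.122 and 0.0734 under lithium, fluoxetine and vehicle. In both scores the lithium libraries lay lower as a body and overlapped with the others.

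Of the genes outside the members, Trim25 was most like the interferon-induced score over the 59 libraries (r = 0.754 of deviations from group means). Timp3 (0.702), Tmem176b (0.701), the pericyte-rich Vtn (0.695), Ctdsp1 (0.695), the endothelial marker Itm2a (0.694), Tmem86a (0.694) and Rcn3 (0.691) came next. For the class I score, the class I gene H2-Q4 led (0.622), before AI464131, Aldh4a1, Cpt1a, Pbx4, Rpl31, Rgcc and Dnajc4 (0.606 to 0.585). Marker lists followed the interferon-induced score in the order meningeal fibroblast (0.641), astrocyte (0.628), mural (0.626), border macrophage (0.545), microglia (0.417) and endothelial (0.377). Excitatory neuron markers ran against it (−0.453). The class I score was most like the astrocyte markers (0.598).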

How the data were processed

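Per the labels' protocols, polyadenylated RNA was prepared with a stranded kit. The authors deposited 1 table of normalized signal: counts per gene divided by a factor per library. The submitters' processing notes name build GRCm38, DESeq2 1.19.11, Salmon 0.11.2 and R 3.6.0, without role or order. A count model was not fitted, since values are not whole. Depth was 25.8 to 36.9 M reads per library, estimated from the commonest low value. Salmon divides reads among similar transcripts. Symbols matched 51285 identifiers through a GRCm38 annotation.

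A single limma 3.58.1 model (R 4.3.3, statmod 1.5.0) on log2(value + 1) held a mean for each of 12 groups, with trend and robust shrinkage, over 16839 genes with a mean of at least 10. Benjamini-Hochberg adjustment ran over all of these, and calls were made at 0.05. Contrasts weighted strata equally. The log2(value + 1) scale understates changes of low genes. Simulated data with planted differences were used to test the fit. Members, lists and the naming rule were chosen with earlier results of these data known. Named members were those called in the averaged contrast of lithium or fluoxetine with vehicle or of the genotypes. By role, the 2 with the smallest p under lithium were added. Rtp4, called only for lithium minus fluoxetine, was not among them. Alternatives changed shrinkage, TMM factors, the filter, the pseudocount (0.5), the groups fitted, the replicate block, the libraries kept and covariates. Replicate numbers were not used to pair libraries in the main model.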

Additional observations from a re-analysis of the deposited data

Results flagged for a closer look

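Values of 16 named members were checked for a single library standing apart in each of the 12 groups. Chance flags about 1 in 20 groups, and 11 of the 192 sets of values were flagged. Ddx60 had 59.16 normalized counts in HT-labelled lithium female 5, against 13.06 to 16.63 in the others of its group. Gbp3 had 158.4 in WT-labelled lithium female 4, against 83.69 to 98.69. The same library had 111.6 for Ifi35, against 60.22 to 73.05, and 69.88 for Isg15, against 31.72 to 38.26. H2-K1 had 670.5 in HT-labelled lithium male 3, against 437.4 to 483.5.

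In fluoxetine groups, WT-labelled female 2 stood high with 73.11 for Isg15, against 32.45 to 41.12, and 252.6 for Parp12, against 180.1 to 193.6. Ddx60 had 49.68 in HT-labelled fluoxetine male 4, against 16.09 to 21.83. Oasl2 had 74.16 in WT-labelled fluoxetine male 1, below the others at 119.2 to 136.3. In vehicle groups, Ifi35 had 105.0 in HT-labelled female 1, against 78.11 to 82.81. Gbp3 had 98.35 in WT-labelled vehicle male 4, below the others at 133.0 to 143.7.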

How the results depend on the processing

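Of 1217 recomputed differences of the 16 named members, 0 changed sign. They cover averaged lithium and the averaged comparisons in which a member was called. These members were picked for a call or a small p, and most recomputations left out 1 library. A change of sign was therefore unlikely, and the other members were not included. The median of the members for fluoxetine minus vehicle, −0.03, became 0.04 with meningeal and 0.02 with border macrophage markers as a covariate. Of the 4 members called under averaged lithium, leaving out 1 library left 3 to 6 and the other 13 alternatives 1 to 6. With meningeal markers as a covariate 1 member and 2 pathway genes remained called, and with mural markers 2 and 3, against 4 and 5. Oas1a lost its call in 6 of the 13 (adjusted p 0.0192 to 0.255 over all of them), Oasl2 in 2 (0.00786 to 0.149) and Gbp3 in 1 (0.00648 to 0.107), while Rsad2 kept it in all (0.000413 to 0.0391). Against 3 members called between genotypes, 1 was called without a filter, 1 with the first principal component, 1 with mural markers, 5 with the replicate block and 10 with border macrophage markers as a covariate. The first 4 of these settings called 877, 1386, 914 and 1828 of all genes, against 1344. The counts over all genes with border macrophage markers are not given here, so member counts with that covariate are not set against a baseline. Leaving out 1 library left 1 to 4 members called, with 18 of the 59 libraries leaving 1. For lithium in HT-labelled mice, 0 calls became 1 (Oasl2) with the replicate block, the first principal component or border macrophage markers, and 0 to 1 without 1 library. In WT-labelled mice they became 2 (Psmb9 and Rsad2) with the block or the principal component, and 0 to 1 without 1 library. In HT-labelled lithium females, 1 (Oasl2) was called with the block, with mural markers or without the striatal-rich libraries. Counts over all genes at these settings within a genotype or group are not given here. These added calls are therefore not set against a baseline. Against fluoxetine, 4 became 7 with border macrophage markers, and the other alternatives gave 3 to 6, as did leaving out 1 library, with 3 in 14 of 39 cases. The covariates of meningeal, mural and border macrophage markers were chosen after seeing the data, and the cause of each change was not tested. Replicate numbers are shared between groups. Of 319 same-numbered pairs of libraries, 123 had deviations correlated over 0.1, and in no comparison did all pairs. The mean correlation was 0.0789 for same-numbered pairs and −0.0196 for other pairs. The labels do not say what a shared number stands for, and this was not tested. Over all genes the block moved the lithium count to 1030, against 742. Absent a filter, that count was 483. The first principal component gave 1472, and meningeal and mural markers gave 603 and 426. Rsad2 and Oas1a had mean normalized counts of 35.5 and 22.4, the lowest of the members called under lithium.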
